A study of Mus musculus with 17 samples.

Results

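Activated B cells of the mouse spleen were compared between mice that carry a knock-in of p52 (p52ki, genotype label p52Ki) and wild-type (WT) mice. The 6 libraries labelled as spleen activated B cells were taken out of 17 in the series, 3 of each genotype, and fitted alone with all expressed genes. The other libraries were from naive and germinal centre B cells of the same 2 genotypes. The cells had been sorted by flow cytometry and their RNA sequenced after amplification from very low input. WT replicates are numbered 1, 3 and 4 and p52ki replicates 2, 3 and 5. The labels give no age, strain, immunisation, sorting gate or description of the knocked-in sequence, and do not tell whether each replicate is another mouse, so the tests measure only the spread among these 6 libraries. The numbers that end the library names follow genotype, so a batch that runs with them cannot be told apart from the knock-in.

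p52 is the NF-kB subunit cut from the p100 precursor, the product of Nfkb2, when receptors such as the BAFF receptor and CD40 engage the noncanonical pathway and its kinase NIK. By its title the series is about p52 bound to ETS1, a transcription factor that in B cells is known for holding back plasma cell formation, in the formation of germinal centres. B cells that meet antigen and T cell help divide, switch from IgM and IgD to other heavy chain classes, and either become early plasma cells or enter germinal centres, where antibody genes are mutated and selected.

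Counts assigned to genes totalled 6211583 to 10036347 in the 6 libraries, with 16745 to 19672 genes detected. The rank correlation of gene levels between replicates was 0.926 to 0.965 in WT and 0.958 to 0.975 in p52ki. Levels are given as CPM, each gene's counts relative to the library's sum of gene counts, in replicate order, and differences as log2 p52ki minus WT from edgeR's quasi-likelihood test with its standard error (SE) and Benjamini-Hochberg adjusted p. The B cell genes Cd79a, Cd79b, Ms4a1, Pax5 and Cd22 were read in all 6 libraries, with Ms4a1, which encodes CD20, at 4890 to 6075 CPM. The proliferation marker Mki67 was at 11.2 to 24.7 CPM, against 2.03 to 8.04 in the 6 naive libraries, with ranges that did not overlap. Those of the activation marker Cd86, at 64.1 to 98.1 in naive and 87.2 to 140 in activated cells, did.

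Of 13680 genes tested, 3 were called at an adjusted p under 0.05 (0.0219%), 1 higher in p52ki (0.00731%) and 2 lower (0.0146%). All 3 are predicted or noncoding loci: the long noncoding RNA Gm42031, and Gm21860 and Gm21748 at the end of the Y chromosome. The genes next in order included the antibody genes Ighv1-72, Ighv1-62-3, Ighg1 and Ighe, lower in p52ki, together with Zbtb32, S100a6 and Mid1 lower and Wdfy1 higher. Their values are given below, and none of them passed the threshold. At an unadjusted p under 0.05 there were 248 genes (1.81%), 82 higher (0.599%) and 166 lower (1.21%), fewer than the 5% that this threshold gives with no difference. The CPM of the 2 groups did not overlap for 576 genes higher in p52ki (4.21%) and 314 lower (2.3%). The median log2 difference of all genes tested was 0.0121.

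**Figure D1:**
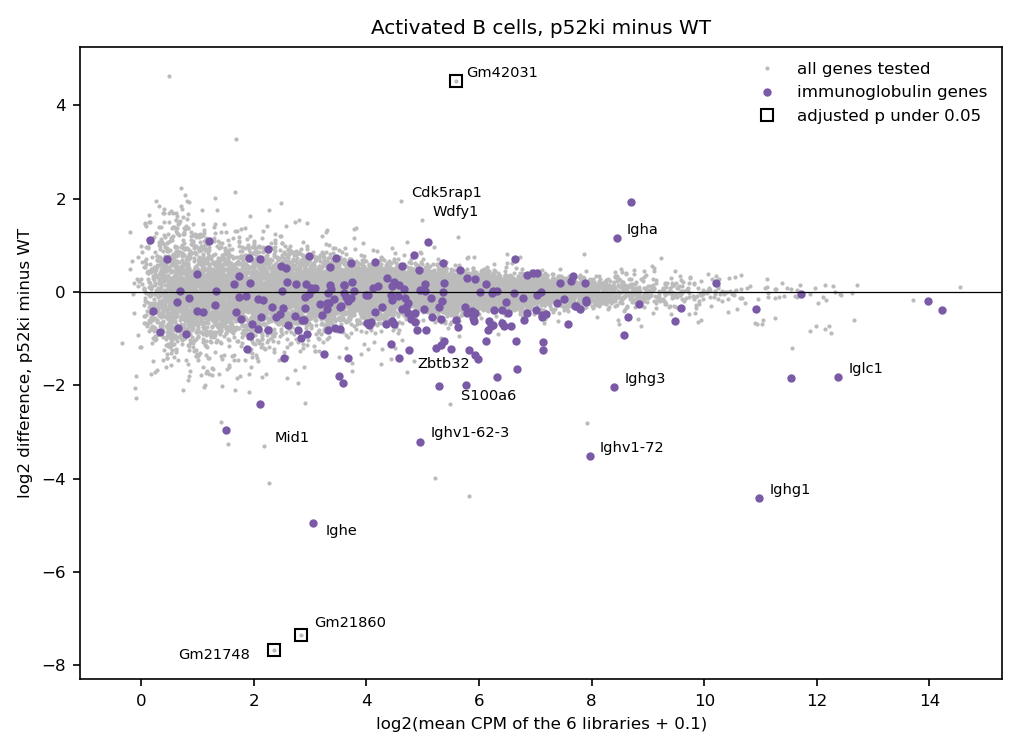
Difference between p52ki and WT activated B cells (log2, y axis) against the mean level over the 6 libraries (log2 of CPM plus 0.1, x axis); grey points are the 13680 genes tested, purple points immunoglobulin genes and open squares the 3 genes with an adjusted p under 0.05. Gm42031 stands at 4.52, Gm21860 at -7.36 and Gm21748 at -7.68, and immunoglobulin genes make up many of the points far below 0.

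Among antibody genes Ighv1-72, a variable segment of the heavy chain, had the smallest p. Ighv1-72 (ENSMUSG00000096074, chr12:115757984-115758461, minus strand, GRCm38) is the segment known from the response of C57BL/6 mice to the hapten NP, where it is paired with the lambda light chain. Ighv1-62-3 (chr12:115460999-115461485) is its nearest relative among the 92 segments compared. Over their last 300 transcript bases the 2 segments differ at 3 positions, marked by capitals in the sequences below, which are shown because reads of one can be counted to the other.
Ighv1-72: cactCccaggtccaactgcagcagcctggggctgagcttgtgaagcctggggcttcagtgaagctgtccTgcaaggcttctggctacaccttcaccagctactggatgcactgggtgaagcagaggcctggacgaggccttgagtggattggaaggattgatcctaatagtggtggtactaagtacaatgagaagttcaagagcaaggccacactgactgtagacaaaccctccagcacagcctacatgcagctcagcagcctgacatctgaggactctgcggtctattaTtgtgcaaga
Ighv1-62-3: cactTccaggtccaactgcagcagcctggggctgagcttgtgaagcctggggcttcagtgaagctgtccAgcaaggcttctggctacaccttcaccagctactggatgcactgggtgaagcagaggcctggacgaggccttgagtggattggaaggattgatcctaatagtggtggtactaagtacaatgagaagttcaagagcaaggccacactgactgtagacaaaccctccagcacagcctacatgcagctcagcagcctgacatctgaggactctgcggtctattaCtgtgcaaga
They are 99% identical over this stretch. The next nearest segments, Ighv1-53 and Ighv1-64, differ from Ighv1-72 at 12 positions (96% identical).

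Ighv1-72 was at 299, 212 and 856 CPM in WT replicates 1, 3 and 4 and at 52.9, 35.0 and 40.4 CPM in p52ki replicates 2, 3 and 5. Every p52ki library lay below every WT library, and WT replicate 4 was far above the other WT libraries. In such bulk samples fewer cells that use a gene and less RNA per cell cannot be told apart. The log2 difference was -3.51 (SE 0.493, adjusted p = 0.0739), so Ighv1-72 missed the threshold in the fit of 6 libraries. It passed when the naive libraries were added to the fit (adjusted p = 0.00237), without WT replicate 3 (0.00126), and without WT replicate 4, where the difference was smaller at -2.70 (0.0183). Over all single libraries left out its adjusted p ran from 0.00126 to 0.662. In naive cells the segment stood at 24.5, 16.8 and 24.8 CPM in WT and 19.7, 19 and 19.3 in p52ki. The naive groups overlapped, and the naive log2 difference was -0.21 (SE 0.399). The difference between the 2 stages, activated minus naive, was -3.31 on the log2 scale (SE 0.560, adjusted p = 0.362), and -3.07 with the replicate number as a block (adjusted p = 0.0130).

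Ighv1-62-3 followed the same order, at 35.3, 28.1 and 103 CPM in WT and 7.17, 5.64 and 6.35 in p52ki (log2 -3.21, SE 0.491, adjusted p = 0.0921). Given the 3 differing bases, its values and those of Ighv1-72 cannot be taken as separate measurements. Ighv1-53 and Ighv1-64 had log2 differences of -0.74 and -0.83, with groups that overlapped. Ighv14-3 was at 43.5, 43.8 and 99.0 CPM in WT and 21.2, 15.7 and 11.8 in p52ki (log2 -2.01, SE 0.376, adjusted p = 0.229). Among 78 Ighv segments tested, 52 had a difference below 0, with a median of -0.21. The groups did not overlap for 12 segments that were lower in p52ki and for 1 that was higher, of 78.

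As a share of all Ighv counts, Ighv1-72 took 12.6%, 9.43% and 17.9% in the WT libraries and 2.36%, 1.24% and 2.46% in the p52ki libraries. It ranked first among the segments in all 3 WT libraries. In p52ki it ranked 11, 25 and 11, and the leading segments were Ighv6-6, Ighv3-6 and Ighv6-3, a different one in each library. In naive cells its share was 1.74% to 2.33% over both genotypes, so the p52ki activated libraries stood in or near the naive range and the WT activated libraries above it. The leading segment, whichever it was, took 13.3% ± 4.29 of Ighv counts in WT and 7.55% ± 1.78 in the p52ki libraries (SD, n = 3 each). Shares were compared by exact two-sided permutation tests, in which 3 against 3 cannot give less than p = 0.1. Both of these shares reached 0.1, which is 0.138 after adjustment over the 11 shares tested.

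Light chain genes showed the lambda type lower in p52ki. Iglc1, the first lambda constant region, was at 8585, 3337 and 12606 CPM in WT and 2440, 2920 and 2063 in p52ki (log2 -1.83, SE 0.454, adjusted p = 1). Iglv1, the variable segment that joins to it, was at 4681, 1904 and 7170 against 1380, 1649 and 1096 (log2 -1.84, SE 0.450, adjusted p = 0.959). For both genes WT replicate 3 lay close above the p52ki libraries, and without it both passed (adjusted p = 0.00654). In naive cells their log2 differences were -0.01 and -0.01. The other lambda constant regions were Iglc3 (-0.36), Iglc4 (-0.12) and Iglc2 (-0.05), and the kappa constant region Igkc had -0.38. All 5 light chain constant regions were thus below 0, with 1 of 5 whose groups did not overlap. Lambda counts were 38.7% ± 4.18 of light chain counts in WT and 29.7% ± 4.06 in the p52ki libraries (SD, n = 3 each; exact permutation p = 0.1, adjusted 0.138), against 21.1% to 24.0% in naive libraries. The kappa segment Igkv4-91 was at 191, 99.6 and 169 CPM in WT and 43.7, 69.4 and 42.2 in p52ki (log2 -1.65, SE 0.340, adjusted p = 0.429).

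Heavy chain constant regions report the class of antibody a cell makes, although transcripts of an unswitched locus that start before a constant region also count to it. Ighg1, the IgG1 constant region, was at 2166, 1265 and 8005 CPM in WT and 323, 154 and 104 in p52ki. The lowest WT library was thus above the highest p52ki library. The log2 difference was -4.41 (SE 0.707, adjusted p = 0.105), and -3.29 without WT replicate 4 (adjusted p = 0.0827). It passed without WT replicate 3 (adjusted p = 0.00915) and with the naive libraries in the fit (0.0479), and was farthest from the threshold without p52ki replicate 5 (adjusted p = 0.977). Ighg1 also did not overlap in naive cells, at 11, 4.34 and 17.4 CPM in WT and 1.16, 1.22 and 2.34 in p52ki. Ighe, the IgE constant region, was at 30.9, 4.09 and 12.6 CPM in WT and 0.797, 0.452 and 0.374 in p52ki (log2 -4.95, SE 0.803, adjusted p = 0.105). It was at or near 0 in naive cells of both genotypes, at up to 0.244 CPM. Ighg3 was at 377, 224 and 1012 CPM against 169, 171 and 77.2 (log2 -2.04, SE 0.522, adjusted p = 1).

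The other classes did not follow. Igha was at 73.6, 99.7 and 451 CPM in WT and 528, 413 and 522 in p52ki, where WT replicate 4 overlapped the p52ki range (log2 1.15, SE 0.555, adjusted p = 1). Without that library Igha was called higher (log2 2.41, adjusted p = 0.0183). It was also called where no filter on low counts was applied, with its log2 difference unchanged at 1.15 (adjusted p = 0.00401). That setting called many more genes. Among them was Ighg2c (log2 1.92, adjusted p = 2.97e-10), which was high in p52ki replicate 3 alone. Ighg2b and Ighg2c each had 1 high p52ki library, replicate 3, with 7.44% and 8.56% of heavy constant counts against at most 1.38% and 0.544% in the other p52ki libraries. Of 8 constant regions 0 were called, 3 were lower with groups that did not overlap, and the median difference was -0.28. Without p52ki replicate 3 that median was -1.81, and without WT replicate 4 it was 0.12.

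Ighg1 took 14.1% ± 8.88 of heavy constant counts in WT and 1.03% ± 0.61 in the p52ki libraries (SD, n = 3 each), Ighg3 2.09% ± 0.911 and 0.726% ± 0.223, and Ighe 0.0745% ± 0.0774 and 0.00289% ± 0.0012. Igha took 0.763% ± 0.519 in WT and 2.65% ± 0.671 in p52ki. Ighd, the IgD region of cells that have not switched, took 4.75% ± 0.947 and 6.95% ± 1.32. These 5 shares did not overlap between the groups (exact permutation p = 0.1 each, adjusted 0.138). The Ighm share was 74.2% ± 10.9 in WT and 82.2% ± 6.55 in p52ki, with groups that overlapped (exact permutation p = 0.3). Constant regions of the IgG classes share sequence, so their counts are less certain than those of single-copy genes.

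**Figure D2:**
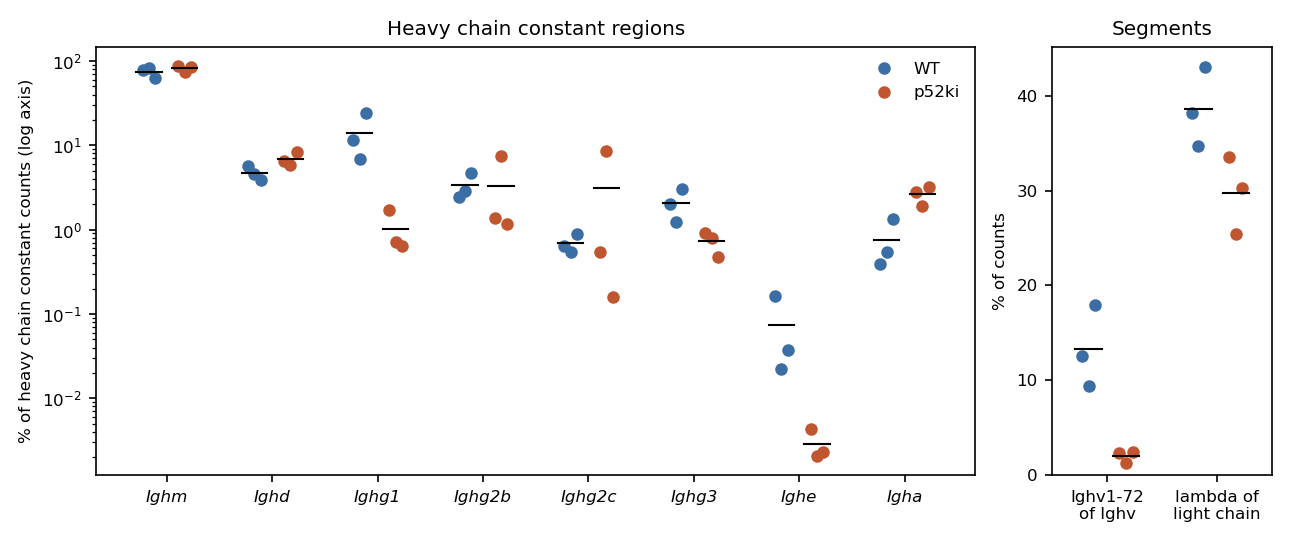
Left, each heavy chain constant region as a percent of heavy constant counts on a log axis; right, Ighv1-72 as a percent of Ighv counts and lambda as a percent of light chain counts. Points are the 6 activated libraries, WT in blue and p52ki in red, and lines are means of 3; Ighg1 runs from 6.91% to 24.0% in WT and 0.641% to 1.73% in p52ki, and Ighv1-72 from 9.43% to 17.9% and 1.24% to 2.46%.

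The 2 genes called lower lie near the ends of the sex chromosomes. Gm21860 (ENSMUSG00000095366, chrY:90754513-90754821, minus strand) was at 18.2, 17.9 and 6.05 CPM in WT and 0.0996, 0 and 0.125 in p52ki. That is 318 counts in the 3 WT libraries against 2 in the 3 p52ki libraries, a depth-scaled ratio of 183 (95% interval 50.3 to 1519, which covers counting error only). The log2 difference was -7.36 (SE 0.759, adjusted p = 0.0162). Gm21748 (ENSMUSG00000096850, chrY:90838869-90839177) was at 16.9, 9.94 and 3.26 CPM in WT and 0.0996, 0 and 0 in p52ki, or 218 counts against 1 (ratio 251, 95% interval 44.6 to 9967; log2 -7.68, SE 0.996, adjusted p = 0.0476). With so few p52ki counts the fitted log2 values depend on the prior count and are not bounds. Without any single p52ki library neither gene was called, with adjusted p of 0.0737 to 0.112 for Gm21860 and 0.239 to 0.440 for Gm21748. Without WT replicate 1, Gm21748 had an adjusted p of 0.0625.

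The 2 genes are not separate measurements. Their annotated transcripts of 309 bases are identical, and the whole sequence is also found in the 2380-base transcript of G530011O06Rik on the X chromosome (chrX:169975043-169978917). The first 120 bases of Gm21860 show the sequence that the 3 loci share, so that reads of one locus can be counted to another.
Gm21860: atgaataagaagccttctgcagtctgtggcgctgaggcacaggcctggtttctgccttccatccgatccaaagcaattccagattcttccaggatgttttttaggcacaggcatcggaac
The Y-linked genes Ddx3y, Eif2s3y, Kdm5d and Uty had 0 counts in all 6 activated libraries, where a count of 0 allows a level of up to 3 counts in a library. G530011O06Rik (chosen with its values known) was at 12.1, 9.12 and 5.58 CPM in WT and 0.299, 0.339 and 0.996 in p52ki (log2 -4.10, SE 0.605, adjusted p = 0.0836).

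Neighbouring genes were lower in the same libraries. Mid1, a microtubule-bound ubiquitin ligase whose gene in laboratory mice crosses the boundary of the region that X and Y share, was at 6.76, 11.9 and 5.58 CPM in WT and 1.39, 0.339 and 0.747 in p52ki (log2 -3.30, SE 0.551, adjusted p = 0.114). Gm21887 on X and Gm47283 on Y, named after their values were seen, were at 48.5 to 86.6 and 68.6 to 133 CPM in WT and at 0.125 to 9.07 and 0 to 10.5 in p52ki (log2 -3.99 and -4.38, adjusted p = 0.191 and 0.199). Of the 31-base stretches of Gm21887, 62.0% are also in Gm47283. For each of these 6 genes WT and p52ki did not overlap in naive cells either. In naive cells Gm21860, Gm21748 and G530011O06Rik had 0 counts in all 3 p52ki libraries and 2.57 to 11.2 CPM in WT.

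Gm42031 (ENSMUSG00000110386, chr8:85125872-85132289, minus strand) was the gene called higher. This long noncoding RNA was at 1.77, 7.01 and 3.14 CPM in WT and 57.5, 168 and 51.2 in p52ki, with p52ki replicate 3 far above the other p52ki libraries. The log2 difference was 4.52 (SE 0.578, adjusted p = 0.0476), and without p52ki replicate 3 it was 3.67 (adjusted p = 0.0737). The call also ended without WT replicate 1 or 4 or p52ki replicate 2 or 5 (adjusted p of 0.0771 to 0.173). In naive cells the levels were 2.96, 3.96 and 3.98 CPM in WT and 49.9, 125 and 45.8 in p52ki, with a log2 difference of 4.35 (SE 0.580, adjusted p = 0.0114). The same p52ki replicate was the highest in both stages.

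Promoter windows from 250 bases before to 50 after a start site were taken from RefSeq (GRCm38.p6) for the named genes it lists, since p52 and ETS1 bind DNA. Of the 23 genes that were called or had the smallest p, 12 had an entry, with 18 windows. The kB motif (GGG, any 5 bases, then CC), searched on both strands, was in 8 of these 18 windows and in 50.8% of all 32851 windows of this length. The ETS motif CGGAAG was in 6 of 18 and in 16.9% of all. Several windows overlap or belong to 1 gene, so they are not independent, and a match of letters is not a binding site. The windows of Gm42031, called higher, and of S100a6 and Zbtb32, the 2 lower genes with the smallest p that had an entry outside the sex chromosomes, are shown with kB matches in capitals. Both matches of Gm42031 overlap in 1 stretch, S100a6 has 1, and Zbtb32 has none of either motif. The RefSeq window of Gm42031 lies wholly within the GENCODE interval given above for that gene. It is thus downstream of the GENCODE start and does not cover it.
Gm42031 (chr8:85131765-85132064, minus strand): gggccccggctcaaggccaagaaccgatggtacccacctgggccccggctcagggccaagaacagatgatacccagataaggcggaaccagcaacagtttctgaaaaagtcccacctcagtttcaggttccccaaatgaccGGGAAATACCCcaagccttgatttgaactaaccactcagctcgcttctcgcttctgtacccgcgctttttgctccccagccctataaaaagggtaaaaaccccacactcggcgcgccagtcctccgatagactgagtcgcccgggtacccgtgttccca
S100a6 (chr3:90612644-90612943, plus strand): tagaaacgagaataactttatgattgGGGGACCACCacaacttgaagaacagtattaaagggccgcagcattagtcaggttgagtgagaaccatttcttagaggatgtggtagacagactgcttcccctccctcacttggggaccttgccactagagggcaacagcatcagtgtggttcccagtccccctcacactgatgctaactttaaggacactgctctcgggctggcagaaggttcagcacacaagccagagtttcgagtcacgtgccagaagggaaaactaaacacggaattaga
Zbtb32 (chr7:30598860-30599159, minus strand): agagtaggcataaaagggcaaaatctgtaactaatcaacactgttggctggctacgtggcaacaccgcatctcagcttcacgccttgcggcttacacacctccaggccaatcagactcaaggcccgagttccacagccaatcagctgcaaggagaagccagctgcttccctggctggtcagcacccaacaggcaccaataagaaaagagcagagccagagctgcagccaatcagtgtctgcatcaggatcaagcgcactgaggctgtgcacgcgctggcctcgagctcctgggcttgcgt

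Zbtb32, a transcriptional repressor found in activated, marginal zone and B-1 B cells, was at 30.7, 51.4 and 38.0 CPM in WT and 14.7, 12.3 and 10.6 in p52ki. The groups did not overlap, as the choice of these genes required. The log2 difference was -1.72 (SE 0.256, adjusted p = 0.0836, and 0.0186 with the naive libraries in the fit). With single libraries left out its adjusted p ran from 0.0685 to 0.662. It passed with DESeq2, with limma voom with quality weights and without a filter, but not with plain limma voom or with all 17 libraries in the fit. Naive cells showed the same order at lower levels, 3.45, 8.42 and 5.27 CPM in WT and 2.09, 2.07 and 2.13 in p52ki. S100a6, a calcium-binding protein also called calcyclin, was at 107, 54.2 and 63.1 CPM in WT and 22.1, 8.35 and 15.1 in p52ki (log2 -2.41, SE 0.398, adjusted p = 0.112; 0.0123 with the naive libraries). With single libraries left out the adjusted p of S100a6 ran from 0.0103 to 0.977. S100a6 too passed with DESeq2, with voom quality weights and without a filter, but not with plain limma voom or all 17 libraries. It was at 27.9, 23.5 and 22.5 against 8.61, 8.04 and 4.57 CPM in naive cells. Dhcr7, the enzyme of the last step of cholesterol synthesis, was at 29.5, 38.3 and 25.8 CPM in WT and 14.5, 14.6 and 13.0 in p52ki (log2 -1.20, SE 0.249, adjusted p = 0.429). It was the 1 gene of 21 in the cholesterol synthesis list whose groups did not overlap, and the list's median was -0.04.

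On the higher side Wdfy1, an endosomal adaptor of Toll-like receptor signalling, was at 15.3, 19.4 and 12.2 CPM in WT and 53.4, 39.6 and 48.8 in p52ki. Its log2 difference was 1.54 (SE 0.249, adjusted p = 0.105, and 0.0108 with the naive libraries). With single libraries left out the adjusted p ran from 0.0685 to 0.8065. Wdfy1 passed with DESeq2, with voom quality weights and without a filter, but not with plain limma voom or with all 17 libraries in the fit. In naive cells 19.3, 23.7 and 13.6 against 43.4, 41.1 and 47.6 CPM were counted. Cdk5rap1, an RNA-modifying enzyme of mitochondria, was at 7.73, 15.3 and 6.74 CPM in WT and 20.2, 48.7 and 47.3 in p52ki (log2 1.95, SE 0.406, adjusted p = 0.429). Cep85, a centrosomal protein, was at 340, 524 and 464 CPM in WT and 787, 707 and 788 in p52ki (log2 0.73, SE 0.203, adjusted p = 1). Bhlhe40, a repressor induced on activation, was at 33.5, 53.2 and 45.1 against 88.7, 82.9 and 58.0 CPM (log2 0.75, SE 0.237, adjusted p = 1). Ifi44, Klhl22, Wnt10a, Atp1b1, Nlk and Eefsec complete the 11 higher genes, with log2 differences of 0.70 to 3.28 and adjusted p of 0.923 to 1.

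**Figure D3:**
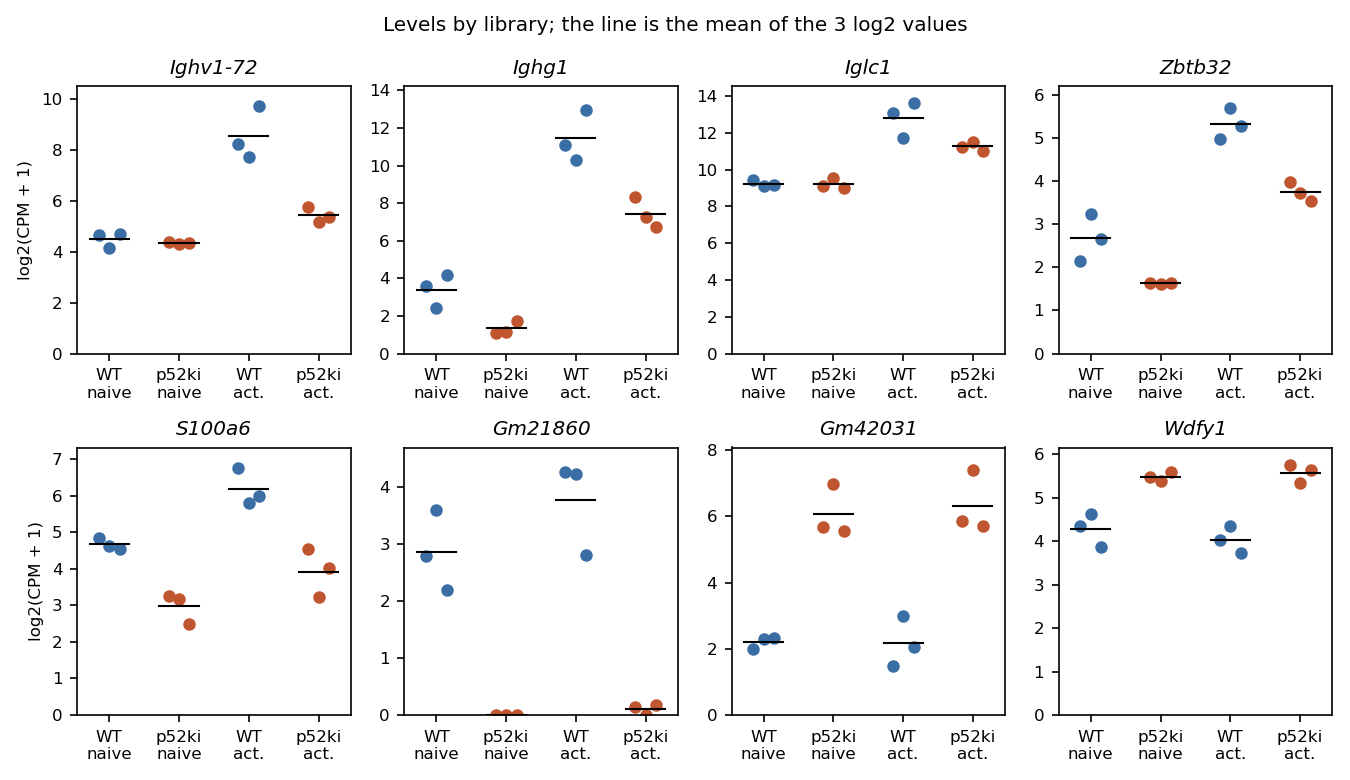
Level of 8 genes as log2 of CPM plus 1 in each naive and activated library, WT in blue and p52ki in red, 3 points a group; the line is the mean of the 3 log2 values. Ighv1-72 and Iglc1 overlap between genotypes in naive cells and not in activated cells, whereas Ighg1, Zbtb32, S100a6, Gm21860, Gm42031 and Wdfy1 do not overlap in either.

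The genotype difference in activated cells was set beside that in naive cells in 1 fit of the 12 libraries, in which 13 genes were called in activated cells (0.0906% of 14348) and 6 in naive cells (0.0418%). Of the 23 genes called or of smallest p in activated cells, 11 were on the same side without overlap in naive cells too, and 12 overlapped there. The 11 were Gm42031, Wdfy1, Wnt10a and Cep85 on the higher side, and Gm21860, Gm21748, Zbtb32, Ighg1, S100a6, Mid1 and Dhcr7 on the lower. The 12 include Ighv1-72, Ighv1-62-3, Ighe, Ighv14-3 and Igkv4-91, so 5 of the 6 antibody genes among the 23 overlapped in naive cells. Ighe was at or near 0 in naive cells of both genotypes, so a difference there could not have been seen. Ighv1-62-3 is not a separate measurement from Ighv1-72. Over all genes that did not overlap in activated cells, 11.8% of the 576 higher and 15% of the 314 lower were on the same side without overlap in naive cells, where 5.44% and 5.04% of all tested genes were higher and lower. Naive and activated libraries of the same number deviated together, as given below, so the naive comparison is not an independent repeat of the activated one.

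The test of the stage difference itself called 0 of 14348 genes (0%) by edgeR's quasi-likelihood test, with 247 at an unadjusted p under 0.05 (1.72%). DESeq2 called 3 and limma voom with quality weights 1. The libraries of the same number deviated together from their group means in every one of the 6 naive and activated pairs, and with the number as a block within genotype 1 gene was called, Ighv1-72. By smallest p the order without the block was Ighv1-72, Ighv1-62-3, Alpl, Ighg3, Lifr and Iglv1. Alpl, alkaline phosphatase, and Lifr, a cytokine receptor, differed mainly in naive cells, with naive log2 differences of 2.1 and -2.26 and activated ones of -0.42 and -0.12. No gene can be called particular to the activated stage from this fit without the block.

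**Figure D4:**
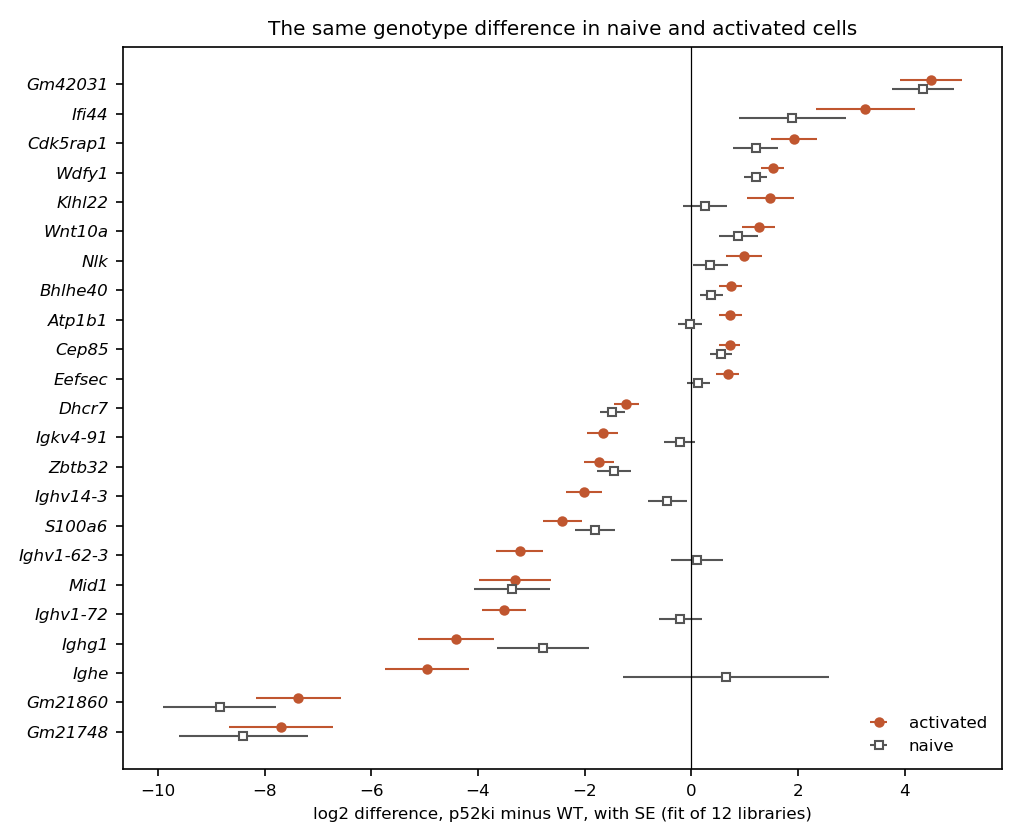
Log2 difference, p52ki minus WT, with its standard error for 23 genes in activated cells (filled red circles) and naive cells (open squares), from 1 fit of 12 libraries. Zbtb32, S100a6, Mid1, Gm42031 and Wdfy1 have the same sign in both stages (S100a6 at -2.42 in activated and -1.81 in naive cells), and Ighv1-72 is at -3.52 in activated and -0.21 in naive cells and Ighv1-62-3 at -3.22 and 0.10.

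Gene lists were described by counts and medians, beside the 0.0219% of all genes called, the 6.51% whose groups did not overlap and the median of 0.0121. Of 35 lists 0 had a called member. In the sentences that follow, genes with groups that did not overlap are called separated.

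The mitosis list had the lowest median. Of its 51 genes tested 46 were below 0, with a median of -0.41, and 11 were separated on the lower side and 0 on the higher. Leaving out single libraries gave medians of -0.55 to -0.33. Kif11, a motor of spindle assembly, was at 20.0, 25.7 and 34.4 CPM in WT and 13.9, 15.1 and 6.35 in p52ki (log2 -1.23, SE 0.362, adjusted p = 1). Hmmr, Prc1 and Tpx2, which organise the spindle, had log2 differences of -0.91, -0.85 and -0.75, each separated. Mki67 was at 18.2, 22.1 and 24.7 CPM against 11.2, 16.3 and 17.4 (log2 -0.59, SE 0.290, adjusted p = 1). The summed level of the list was 1116 ± 143 CPM in the WT libraries and 922 ± 114 in the p52ki libraries (mean ± SD, n = 3 each), and 655 ± 13.1 and 602 ± 23.3 in naive cells. DNA replication genes did not share this, with a median of -0.03 over 40 genes, 17 above and 23 below 0, and 1 separated.

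Most plasma cell genes and genes of the secretory apparatus had differences below 0, but few were separated. The numbers separated are to be read beside the 6.51% of all genes tested. Of 18 plasma cell regulators and markers 14 were below 0, and 2 were separated, Iglv1 and Fkbp11. Iglv1 is the lambda segment already given above, not a further observation. The median was -0.29, and -0.48 to -0.16 with single libraries left out. The list's median by library had a within-group SD of 0.31, larger than this difference. Fkbp11, a folding enzyme of secretory cells, was at 29, 12.2 and 42.8 CPM in WT and 8.97, 10.4 and 11.5 in p52ki (log2 -1.54, SE 0.441, adjusted p = 1). Jchain, the joining chain of polymeric IgM and IgA, was at 3679, 1647 and 7005 CPM against 1683, 2668 and 1387, with WT replicate 3 inside the p52ki range (log2 -1.19, SE 0.489, adjusted p = 1). Xbp1, the transcription factor of the secretory programme, was at 337, 314 and 655 CPM against 277, 346 and 223 (log2 -0.70). Prdm1, which encodes the plasma cell regulator BLIMP1, was at 0.966, 17.9 and 16.3 CPM in WT and 8.47, 13.1 and 7.85 in p52ki, so the groups overlapped widely (log2 -0.26, SE 0.666). Irf4, needed for plasma cell formation, was at 64.9, 77.6 and 70.2 CPM against 99.9, 71.6 and 75.6 (log2 0.15).

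Of 36 genes of endoplasmic reticulum folding and secretion 27 were below 0, with Edem1 and Sdf2l1 separated. The median was -0.24, and -0.28 to -0.08 with single libraries left out, and the list's median by library had a within-group SD of 0.203. The list's summed level overlapped, at 6445, 8185 and 9477 CPM in WT and 7659, 7513 and 6843 in p52ki. Edem1, which sends misfolded proteins to degradation, was at 189, 220 and 286 CPM in WT and 183, 143 and 121 in p52ki (log2 -0.71, SE 0.233, adjusted p = 1). Summed plasma cell genes, of which Jchain and Iglv1 make up most, stood at 10020, 5325 and 16430 CPM in WT and 4872, 6097 and 4038 in p52ki. The order of the WT libraries in that sum was that of Ighg1, Ighv1-72 and Iglc1. Since the sum contains the lambda segment Iglv1, its order is not separate from that of the antibody genes. Slpi, a protease inhibitor chosen with its values known, had the same order of WT libraries at 341, 99.5 and 816 CPM, against 35.4, 121 and 32.1 in p52ki (log2 -2.82, SE 0.739, adjusted p = 1).

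Among 26 markers of marginal zone and B-1 cells, 18 were below 0 (median -0.33, and -0.50 to -0.20 with single libraries left out), and 4 were separated, all lower. Besides Zbtb32 these were Cd9, Plscr1 and Spn. Cd9, a tetraspanin of marginal zone and B-1 cells, was at 177, 167 and 171 CPM in WT and 99.4, 134 and 105 in p52ki (log2 -0.67, SE 0.223, adjusted p = 1). Cr2, which encodes CD21, and Cd1d1, both high on marginal zone cells, had log2 differences of 0.20 and 0.03. The list's summed level was 4250 ± 746 CPM in WT and 4003 ± 55.8 in p52ki.

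All 5 NF-kB subunit genes had groups that overlapped. Nfkb2, which encodes p100 and p52, was at 70.8, 161 and 94.2 CPM in WT and 139, 105 and 126 in p52ki (log2 0.15, SE 0.247, adjusted p = 1). Relb, the usual partner of p52, was at 26.9, 64.8 and 39.0 CPM against 59.4, 60.2 and 54.9 (log2 0.39, SE 0.266). Rela, Nfkb1 and Rel had differences of 0.27, 0.21 and 0.04. The 5 were thus above 0, with a median of 0.21 that ran from 0.01 to 0.42 as single libraries were left out. WT replicate 1 was the lowest of the 6 libraries for Nfkb2, Relb, Rela and Rel, and it also had the fewest counts and detected genes. Fits without single libraries, this one among them, brought the list's median as low as 0.01. The part of the lower depth of WT replicate 1 was not tested. Since the knocked-in sequence is not described, the level of Nfkb2 was not used as a check of the genotype label.

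Among 13 inhibitors of the IkB family and of NF-kB feedback 9 were above 0, and 1 was separated, Nfkbia. The median was 0.20, and 0.03 to 0.21 with single libraries left out. Nfkbia encodes IkB-alpha, an inhibitor that is itself induced by NF-kB, and was at 336, 284 and 319 CPM in WT and 380, 433 and 387 in p52ki (log2 0.28, SE 0.216, adjusted p = 1). Bcl3, a nuclear partner of p52, had a difference of 0.43. Of 12 kinases and adaptors of the noncanonical pathway 0 were separated, with a median of 0.02. These include Map3k14, which encodes NIK (0.29), and Traf3, which holds NIK low (0.44). Of 17 TNF superfamily receptors and ligands 2 were separated on the higher side and the median was 0.02 (-0.18 to -0.03 with single libraries left out).

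Of 15 ETS transcription factors 13 were above 0 (median 0.18, and 0.02 to 0.34 with single libraries left out). Of these factors 1 was separated, Spi1, which encodes PU.1 (log2 0.13, SE 0.197). Ets1 was at 266, 483 and 333 CPM in WT and 518, 346 and 487 in p52ki, with 1 p52ki library within the WT range (log2 0.28, SE 0.226, adjusted p = 1). WT replicate 1 was again the lowest of the 6.

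**Figure D5:**
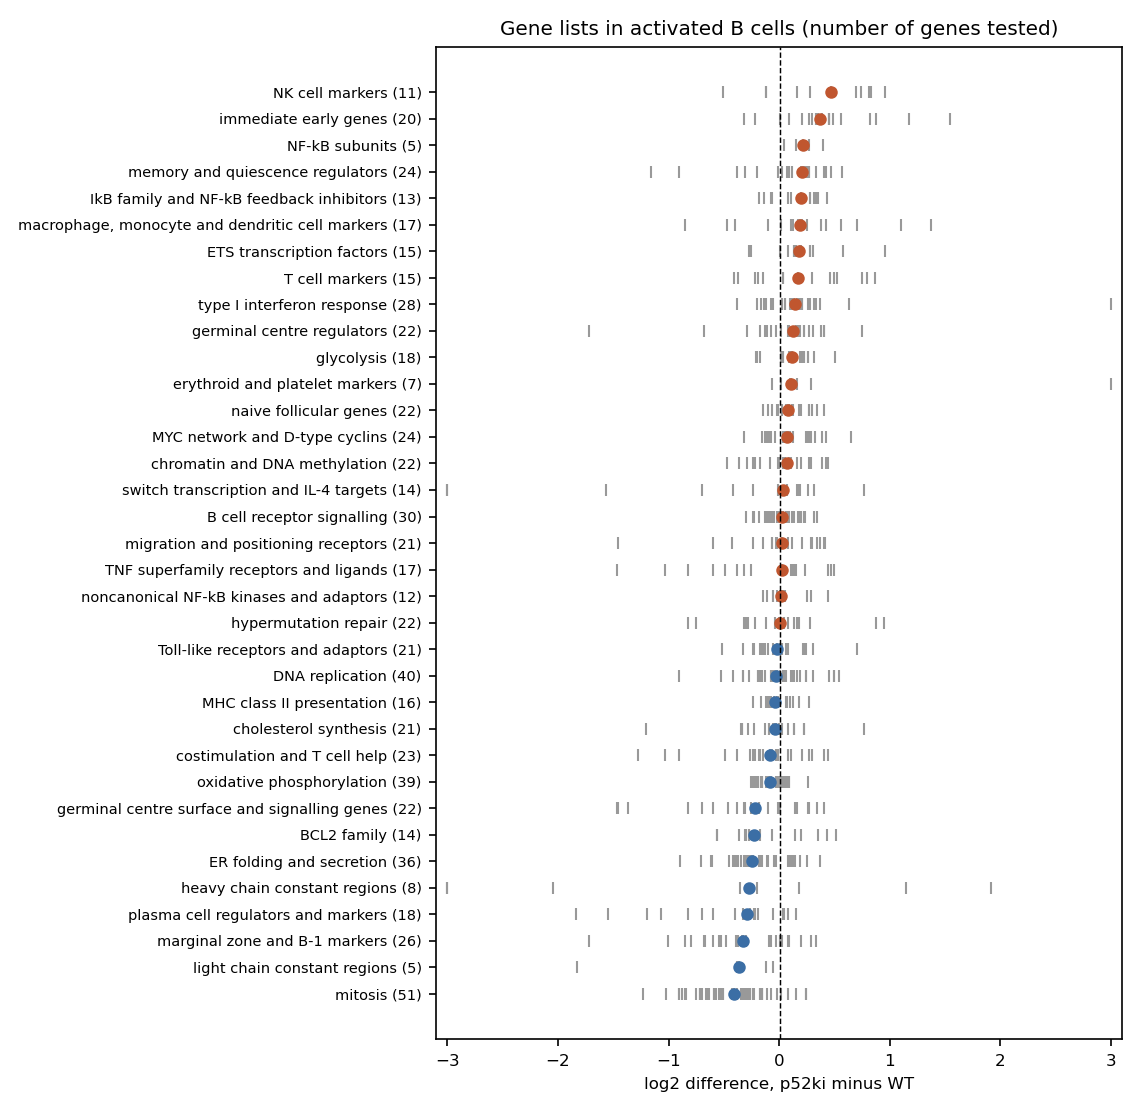
Log2 difference, p52ki minus WT, in activated B cells for the tested genes of 35 lists, with the number of genes in brackets; each tick is a gene, values beyond 3 are drawn at 3, and the dot is the list's median, red above 0 and blue below. The dashed line is the median of all genes tested, 0.0121; the medians run from -0.41 for mitosis to 0.47 for NK cell markers.

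Germinal centre genes were separated in both directions. Among 22 transcription regulators of germinal centre B cells 3 were separated on the higher side (Bhlhe40, Irf8 and Batf) and 2 on the lower (Zbtb32 and Ezh2), with a median of 0.12. Bcl6, the master repressor of that stage, was at 19.2, 17.2 and 11.2 CPM in WT and 17.7, 16.8 and 21.4 in p52ki (log2 0.17, SE 0.299, adjusted p = 1). Irf8 was at 279, 404 and 313 CPM against 488, 438 and 410 (log2 0.38, SE 0.192, adjusted p = 1). Of 22 surface and signalling genes 15 were below 0 (median -0.22), and 1 was separated on the higher side and 0 on the lower. S1pr2, which keeps cells within the germinal centre, was at 7.08, 3.16 and 3.61 CPM in WT and 0.996, 3.39 and 0.872 in p52ki (log2 -1.45, SE 0.666, adjusted p = 1). Without p52ki replicate 3 the median of this list was -0.47.

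Immediate early genes had the highest median of the B cell lists. Of 20 tested 18 were above 0 (median 0.37, and 0.23 to 0.63 with single libraries left out), and 2 were separated, Btg2 and Zfp36l1. Nr4a1, an orphan receptor induced within minutes of antigen receptor signalling, was at 10.5, 28.2 and 50.4 CPM in WT and 94.5, 86.1 and 27.8 in p52ki (log2 1.17, SE 0.527, adjusted p = 1). Egr1 was at 90.5, 224 and 186 CPM against 448, 358 and 97.9 (log2 0.82, SE 0.458). For both genes p52ki replicate 5 fell inside the WT range and the other p52ki libraries lay above it. Naive cells showed a like spread for Nr4a1, at 22.2, 30 and 64.3 CPM in WT and 124, 110 and 42.0 in p52ki, with replicate 5 again the lowest.

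Of 28 type I interferon response genes 21 were above 0, and 3 were separated on the higher side, Ifi44, Oas1a and Rsad2. The median was 0.15, and 0.03 to 0.18 with single libraries left out. Ifi44 was at 0, 1.40 and 0.233 CPM in WT and 4.68, 6.89 and 5.36 in p52ki (log2 3.28, SE 0.795, adjusted p = 0.923) and had no count in WT replicate 1. Of 14 BCL2 family genes Bax and Bad were separated on the higher side and Bcl2l1, which encodes BCL-XL, on the lower (median -0.22). Cdkn2c, an inhibitor of the cyclin D kinases, was at 12.4, 10.2 and 11.4 CPM in WT and 6.68, 4.74 and 4.61 in p52ki (log2 -1.16, SE 0.339, adjusted p = 1). It was the 1 lower separated gene of the 24 memory and quiescence regulators, whose median was 0.20. Naive follicular genes (22, median 0.08), B cell receptor signalling (30, 0.03), class II presentation (16, -0.04), MYC network and D-type cyclins (24, 0.07), Toll-like receptors (21, -0.02), oxidative phosphorylation (39, -0.09), glycolysis (18, 0.12), migration receptors (21, 0.03), costimulation (23, -0.08) and chromatin genes (22, 0.07) had medians within 0.12 of 0. In these 10 lists 0 to 2 genes each were separated.

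Markers of other cell types were low in the 6 libraries, and none of them was called. NK cell markers had a median of 0.47 over 11 genes, with 0 separated and summed levels of 26.2 to 55.9 CPM in WT and 33.5 to 77.1 in p52ki. With single libraries left out this median ran from 0.02 to 0.81. Macrophage, monocyte and dendritic cell markers had a median of 0.19 over 17 genes, with C1qa and Vcam1 separated on the higher side, and medians of -0.13 without p52ki replicate 3 to 0.74 without WT replicate 1. They summed to 148 to 238 CPM in WT and 167 to 271 in p52ki. C1qa was at 2.90, 3.74 and 2.91 CPM against 6.28, 10.4 and 4.48. T cell markers, which include Cd2 and Cd5 of B cells, had a median of 0.17 over 15 genes and 0 separated. Their defining gene Cd3e was at 0.935 to 3.49 CPM in WT and 1.37 to 4.78 in p52ki. Erythroid and platelet markers summed to 40.0 to 316 CPM in WT and 165 to 188 in p52ki over 7 genes tested. The platelet chemokine Ppbp was separated, at 0, 0 and 0.233 CPM in WT and 2.29, 3.16 and 2.12 in p52ki. The part of these markers in the differences given above was not tested.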

How the data were processed

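RNA of sorted spleen B cells was sequenced as read pairs after SMART-Seq amplification, per the labels' protocols. No molecular identifiers are named there, and copies made by amplification may therefore be counted again. The limit of 3 counts that a count of 0 allows covers counting error only. The deposited table holds raw counts per gene, which the authors made on GRCm38. The submitters' processing notes list featureCounts of Subread 1.6.2, HISAT2 2.1.0 and SAMtools 1.8. The sources used here give no annotation release, strand setting or treatment of reads with several matches, so overlapping, antisense and near-identical genes are uncertain. All 55536 gene IDs matched GENCODE M21, which gave symbols and coordinates.

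The 6 activated libraries (6211583 to 10036347 counts) were fitted alone with edgeR 4.0.16 in R 4.3.3 (filterByExpr, TMM scaling, robust glmQLFit, glmQLFTest), with p adjusted by Benjamini-Hochberg over the 13680 genes kept and calls at an adjusted p under 0.05. Every adjusted p without another tool named is from this test, or from the same fit of the 12 naive and activated libraries (14348 genes), which gives the naive values and the stage difference. CPM uses each library's plain total and fold changes the TMM scaling. Replicates differed by more than counting error in every pair (chi-square per degree of freedom 19.7 to 59.3), so none was merged. The script was tested on simulated data. Of genes changed by 1, 2 and 3 on the log2 scale it recovered 19.1%, 91.4% and 100% for the activated comparison (13389 genes) and 8.33%, 50% and 92% for the stage difference (13979 genes). It also called 9 and 8 genes that had not been changed. The simulation gave every gene the same dispersion and so lacks the gene-to-gene spread of these libraries. Its recovery rates therefore test the script and are not the power in these data.

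Naive and activated libraries of the same number within a genotype deviated together (correlation 0.117 to 0.374 over genes in 6 of 6 pairs), so the number pairs them in the stage comparison. The tests of shares were exact two-sided permutation tests. Alternatives were another scaling, other filters, DESeq2 1.42.0, limma 3.58.1 voom with and without quality weights, other sets of libraries, the replicate block, and single libraries left out. Genes named are a fixed set (NF-kB subunits, Ets1, Bcl6, Irf4, Prdm1, Ighg1, Ighv1-72 and 1 gene that is not reported here), all called genes, the 10 higher and 10 lower of smallest p with a mean of at least 5 CPM and no overlap, up to 4 of each list and 6 of the stage test; list members named for contrast, and others where stated, were chosen after their values were seen. The genes, the lists and the comparison were chosen with earlier results of these data known.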

Additional observations from a re-analysis of the deposited data

Results flagged for a closer look

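The germinal centre libraries, 3 of WT and 2 of p52ki, entered no comparison here. In them 4 of the 11 higher genes that were called or had the smallest p in activated cells also lay above every WT library. The share of all tested genes that did so was not counted, so this number has no background to be read against. Gm42031 had at least 49.4 CPM in the p52ki germinal centre libraries and at most 5.48 in WT, and Wdfy1 at least 49.2 against at most 13.6. Cep85 had at least 800 against at most 549, and Atp1b1 at least 13.3 against at most 6.50. Nfkbia, a list gene higher in activated p52ki cells without overlap, was picked here with its values known. It was also above WT there, at 601 and 434 CPM against at most 232. Gm42031, Wdfy1 and Cep85 did not overlap in naive cells either, whereas Atp1b1 overlapped there (18.9 to 21.8 CPM in WT and 16.9 to 23.6 in p52ki). These differences in germinal centre cells were not tested.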

How the results depend on the processing

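The 3 calls of the activated comparison (1 higher, 2 lower) became 60 without a filter on low counts (9 higher, 51 lower), 1 with a mean of at least 5 CPM required, 25 with DESeq2 (5 and 20), 0 with limma voom, 15 with quality weights (2 and 13), 1 without robust estimation and 13 with the 12 naive and activated libraries (2 and 11). The count was 3 with RLE scaling and without immunoglobulin genes, and 2 with all 17 libraries, where Gm42031 and Ighv1-72 were called and Gm21860 and Gm21748 were not (adjusted p = 0.125 and 0.183). Leaving out single libraries gave 0 to 16 calls: 0 without any one p52ki library, 1, 16 and 4 without WT replicate 1, 3 and 4. The cause of these shifts was not tested.

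The stage difference, with 0 calls, gave 16 without a filter, 3 with DESeq2, 1 with voom quality weights, 1 with the replicate block and 0 to 4 with single libraries left out, the 4 without WT activated replicate 3. No paired analysis was possible for the activated comparison because its groups share only the number 3. Not every library correlated best with its own number: p52ki activated replicate 2 had 0.145 with its naive namesake and 0.228 with naive replicate 5.

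Among the shares, Ighg2b differed by -0.03 percentage points, and by -2.08 to 1.05 with single libraries left out. Ighg2c differed by 2.40, and by -0.335 to 3.87. Ighm differed by 8.07 points as a share and by -1457 CPM over all genes. The other 8 shares kept direction in each of their 7 alternatives.

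Of the named genes' values under the alternatives 495 kept direction and side of the threshold, 57 passed it and 22 lost it. Another 10 changed direction, with the gene called neither in the main fit nor in the alternative. A change of direction with a call in either fit was seen for 0. Of 245 list medians under the alternatives 15 moved by more than the spread between libraries. Amplification from little RNA and 3 libraries a group limit the precision. Most changes of 1 on the log2 scale were missed in the simulated data, whose recovery rates are not the power in these libraries. In the libraries themselves large fitted differences did not pass, such as that of Ighg1 at -4.41.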
